A study of Zea mays with 30 samples.

Results

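The step from 24 to 36 hours after imbibition (HAI) was examined in F9721, the slow-germinating maize inbred line of a time course of germinating seeds. The rule took the 3 libraries of F9721 at 36 HAI and set them against the 3 libraries of F9721 at 24 HAI, which are 6 of the 30 libraries of the series. RNA was extracted from whole germinating seeds at 6 sampling times up to 48 HAI in F9721 and at 4 sampling times up to 24 HAI in the fast-germinating inbred line 72-3, with 3 libraries for each group. Seeds of both lines were germinated on moist filter paper in petri dishes under the same light and temperature. In the paper's germination test, seeds were first sterilized with dilute hydrogen peroxide and rinsed with water, and no other treatment is described. Dry seeds are given as 0 HAI. The sampling times of 36 and 48 HAI exist in F9721 only, so the step could not be set against the same clock time in 72-3. F9721 seeds at 24 and 36 HAI were sampled before the line completed germination, whereas 24 HAI is the last time sampled in 72-3, when its seeds had germinated. Each library holds embryo, endosperm, aleurone and seed coat together, so fewer cells of a type and less RNA per cell cannot be told apart in any of the values below. The files pair no names with the gene identifiers of the B73 AGPv4 annotation, and none of them matched the reference gene table, so tissue markers could not be checked and identifiers are given without a function, except for the genes of the candidate locus that the study itself describes.

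A dry maize seed holds messenger RNAs that were made while the seed matured. After water uptake these stored messages are translated or broken down, while transcription of new messages starts in the embryo and in the aleurone, the living outer layer of the endosperm. Germination ends when the radicle, the embryonic root, breaks through the seed coat, and mobilization of the reserves of the endosperm goes on after that. The comparison asks which transcripts changed in the slow line in the hours that precede visible germination.

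The libraries at 36 HAI held 10752304 to 12138682 counts on genes, and those at 24 HAI held 10835458 to 12248999, within the 8080968 to 14192708 of the whole series. At this depth 3 counts in a library correspond to 0.225 to 0.261 normalized CPM, which are counts brought to a common library size with TMM scaling. Reads outside annotated genes were 5.59% to 6.46% at 36 HAI and 8.09% to 8.96% at 24 HAI. One library of the step stood apart. Across 22190 genes, replicate 3 at 36 HAI correlated with replicates 1 and 2 at 36 HAI with a Pearson r of 0.965 and 0.959, whereas replicates 1 and 2 correlated with each other at 0.994. Its r with replicate 3 at 48 HAI was 0.974, and replicate 3 at 48 HAI likewise correlated less with its own replicates 1 and 2, at 0.966 and 0.957. The paper lists the lowest GC content of the reads in the series for replicate 3 at 36 HAI and at 48 HAI. What part the GC content has in the values below was not tested. The 3 libraries at 24 HAI correlated with each other at 0.987 to 0.991. Replicate 3 at 36 HAI lay below the mean of replicates 1 and 2 for 78.1% of the genes called lower below, for 44.4% of those called higher and for 42.2% of the expressed genes not called. Its part in the main counts, the locus list and the named genes whose call changed is given beside them.

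Among large changes, more genes were lower than higher in F9721 seeds after these 12 hours. A differentially expressed gene (DEG) is one with an adjusted p no higher than 0.01 and a change by 2 or more on the log2 scale in either direction. On that rule, 349 genes were higher and 1014 were lower at 36 HAI than at 24 HAI, by the quasi-likelihood test of edgeR with Benjamini-Hochberg adjustment. These 1363 DEGs were 3.92% of the 34746 genes tested, and 74.4% of them were lower. Without the threshold on the fold change, 2637 genes were higher and 3467 were lower, together 6104 genes or 17.6% of those tested, a less uneven split than among the DEGs. The median log2 fold change over all genes tested was 0.00. Without replicate 3 at 36 HAI the counts were 324 higher and 757 lower, and 289 of the 349 higher genes and 739 of the 1014 lower genes kept their call. On log2(TPM + 0.1) of the deposited TPM values, limma called 526 genes higher and 711 lower, and on log2(TPM + 1), which shrinks the change of low genes, 187 higher and 389 lower. Both fits used the TPM values without TMM scaling, and the part of the scaling in these splits was not tested.

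**Figure D1:**
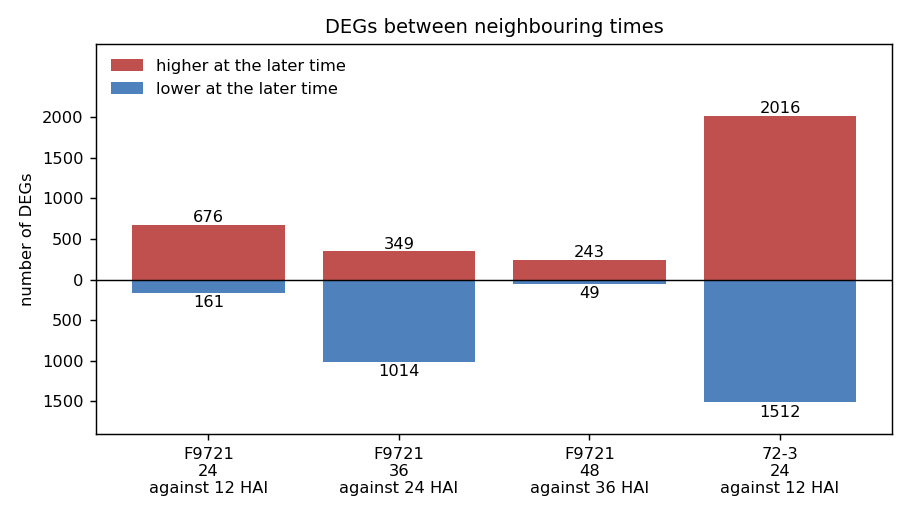
Number of DEGs between neighbouring sampling times, with genes higher at the later time drawn above the 0 line and genes lower at the later time below it, for the 3 latest steps of F9721 and the last step of 72-3. The step of F9721 at 36 HAI against 24 HAI has 349 genes higher and 1014 lower, while the steps of F9721 before and after it have more genes higher than lower.

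Among the DEGs of the steps on either side, more genes were higher than lower. At 24 HAI against 12 HAI, F9721 had 676 higher and 161 lower DEGs, or 2.41% of the genes tested. At 48 HAI against 36 HAI it had 243 higher and 49 lower DEGs, or 0.840% of the genes tested. Without the threshold on the fold change the splits were nearly even, with 2655 higher and 2531 lower genes at 24 HAI against 12 HAI, and 615 higher and 545 lower at 48 HAI against 36 HAI. Both of these steps share libraries with the step studied, which is why they are given side by side and not as an overlap.

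The 1014 lower genes held a large part of the counts in dry and early imbibed seeds. They took 1.30%, 1.58% and 0.692% of the counts on genes in the 3 libraries at 36 HAI, against 8.69%, 8.48% and 7.77% in the 3 libraries at 24 HAI. The libraries of the 2 times did not overlap, which the choice of the genes fixes, and replicate 3 at 36 HAI was the lowest. The times that the choice did not use give the course of the same genes in F9721: 21.9% to 24.8% in dry seeds, 22.4% to 25.3% at 6 HAI, 18.6% to 21.1% at 12 HAI and, after the step, 0.403% to 0.712% at 48 HAI. These genes thus took a large share of the counts up to 12 HAI, and less in each library at 24 HAI than in any earlier one. The 95% Wilson interval of any such share was at most 0.0280 percentage points on either side, which covers counting error only.

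Most of these genes had their highest level well before 24 HAI. Among the 1014, the highest group mean of F9721 lay in dry seeds for 417 genes, at 6 HAI for 360, at 12 HAI for 177 and just before the step, at 24 HAI, for 59, and the remaining gene had it at 48 HAI. Of the lower genes, 41.1% had their highest mean at 0 HAI and 35.5% at 6 HAI. Over all 32947 genes with reads in F9721, these shares were 24.2% and 13.6%. Genes chosen as lower at 36 than at 24 HAI cannot have their highest mean at 36 HAI. Part of this gap is thus built in by the choice. Over all genes, 14.8% had their highest mean at 36 HAI and 25.1% at 48 HAI. Shares among only the genes highest at 24 HAI or before were not computed, so no excess at 0 or 6 HAI is concluded. The median level of the lower genes was 12.1 CPM in dry seeds, 15.3 CPM at 6 HAI, 13.2 CPM at 12 HAI, 6.60 CPM at 24 HAI, 0.873 CPM at 36 HAI and 0.797 CPM at 48 HAI. On a log scale the largest drop of this median lay between 24 and 36 HAI, the contrast that chose the genes.

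**Figure D2:**
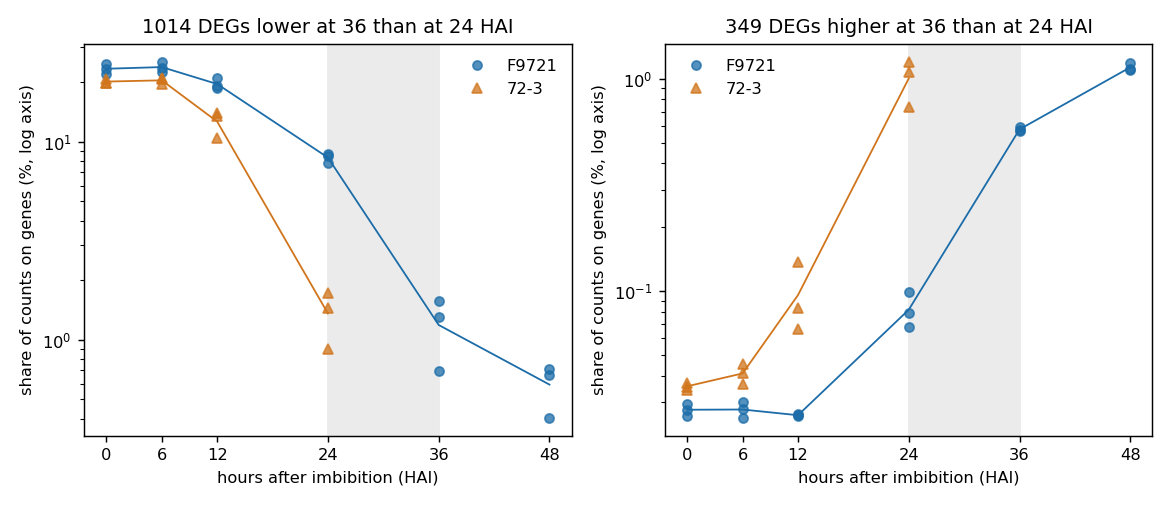
Share of the counts on genes taken by the 1014 DEGs that were lower (left) and by the 349 DEGs that were higher (right) at 36 HAI than at 24 HAI, on log axes against hours after imbibition, with 1 point per library and lines through the group means. The grey band marks the step from 24 to 36 HAI. The lower genes take 21.9% to 24.8% of the counts in dry F9721 seeds and under 1% at 48 HAI, and in 72-3 they reach 0.897% to 1.73% at 24 HAI already.

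The falls were deep. The median log2 fold change of the 1014 genes was -2.73, or 6.62-fold, and it was -2.68 with the 34 genes that had 0 counts at 1 of the 2 times set to their bound of 3 counts over the group. A change of at least 3 on the log2 scale was reached by 410 genes, of at least 4 by 159 and of at least 5 by 52. In mean CPM at the time where they were higher, 435 genes reached 10, 107 reached 100 and 15 reached 1000. The 5 genes with the highest mean at 24 HAI took 0.398% of the pooled counts at 36 HAI and 2.60% at 24 HAI, and the 100 highest took 0.995% at 36 HAI and 6.90% at 24 HAI.

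Zm00001d037988 had the largest difference in CPM. It stood at 2643, 2700.1 and 1338 CPM in the 3 libraries at 36 HAI, against 11149, 11455 and 8844 CPM at 24 HAI. The groups did not overlap and replicate 3 at 36 HAI was the lowest. The log2 fold change was -2.23 (SE 0.32, edgeR quasi-likelihood test, Benjamini-Hochberg adjusted p = 2.9e-06), and without replicate 3 at 36 HAI the gene was no longer a DEG, at -1.97. In dry F9721 seeds it averaged 27486 ± 3103 CPM and at 48 HAI 653 ± 152 CPM (SD, n = 3 each). Of the 4 genes with the largest CPM differences downwards, all 4 had replicate 3 as their lowest library at 36 HAI, and their log2 fold changes lay between -4.03 and -2.23. Without that library the other 3 kept their call, at -3.57 to -2.73.

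Zm00001d032576 had the smallest p of the step among genes without overlap between the times. It was measured at 1.05, 0.974 and 0.763 CPM at 36 HAI and at 19.8, 20.8 and 21.2 CPM at 24 HAI. All libraries at 36 HAI were far below all libraries at 24 HAI, and the spread within each time was small. The log2 fold change was -4.45 (SE 0.19, edgeR quasi-likelihood test, Benjamini-Hochberg adjusted p = 2.4e-16). This gene averaged 145 CPM in dry seeds, 127 CPM at 6 HAI, 67.6 CPM at 12 HAI and 0.258 CPM at 48 HAI in F9721, so each later time had a lower mean. The 6 lower genes with the smallest p had log2 fold changes between -5.40 and -3.46. All 6 were also lower DEGs at 24 HAI against 12 HAI in 72-3. So were 57.5% of all 1014 lower genes and 4.35% of all genes tested.

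The 349 higher genes had low counts up to 12 HAI. They took 0.594%, 0.573% and 0.566% of the counts on genes at 36 HAI, against 0.0674%, 0.0788% and 0.0988% at 24 HAI. Replicate 3 at 36 HAI did not stand out in this share. At 12 HAI and before, the same genes took 0.0253% to 0.0301% in every F9721 library, and at 48 HAI they took 1.10% to 1.19%. Their highest group mean in F9721 lay at 48 HAI for 295 genes (84.5%) and at 36 HAI for 50 (14.3%), against 25.1% and 14.8% of all genes with reads in F9721. Genes chosen as higher at 36 than at 24 HAI cannot have their highest mean at 24 HAI, so part of this gap too is built in by the choice. The median level was 0.154 CPM in dry seeds, 0.183 CPM at 6 HAI, 0.174 CPM at 12 HAI, 0.658 CPM at 24 HAI, 4.73 CPM at 36 HAI and 8.73 CPM at 48 HAI, so the median of the list was highest at the last time sampled. The median log2 fold change was 2.64, or 6.23-fold, and 2.61 with the 16 genes at 0 counts set to their bound. None of the 349 reached 1000 CPM in the group mean, and 9 reached 100.

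Zm00001d037932 had the smallest p upwards. It was measured at 49.2, 49.3 and 59.2 CPM at 36 HAI and at 4.27, 3.72 and 4.25 CPM at 24 HAI. The times did not overlap, and replicate 3 at 36 HAI was the highest. The log2 fold change was 3.68 (SE 0.23, edgeR quasi-likelihood test, Benjamini-Hochberg adjusted p = 9.2e-13). In F9721 it averaged 1.87, 1.38 and 1.53 CPM at 0, 6 and 12 HAI and 85.4 CPM at 48 HAI. In 72-3 the same gene averaged 42.7 ± 10.1 CPM at 24 HAI and 42.7 ± 12.7 CPM at 12 HAI (SD, n = 3 each), after 11.3 ± 3.1 CPM at 6 HAI (SD, n = 3), so in that line the level was already up before the last step.

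Zm00001d002004 had the largest difference in CPM upwards. It was measured at 255, 391 and 229.8 CPM at 36 HAI and at 35.1, 44.6 and 30.5 CPM at 24 HAI. The times did not overlap. Its log2 fold change was 2.99 (SE 0.37, edgeR quasi-likelihood test, Benjamini-Hochberg adjusted p = 2.8e-07). This gene was also a higher DEG at 24 HAI against 12 HAI, and it stood at 465 ± 33 CPM at 48 HAI (SD, n = 3).

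**Figure D3:**
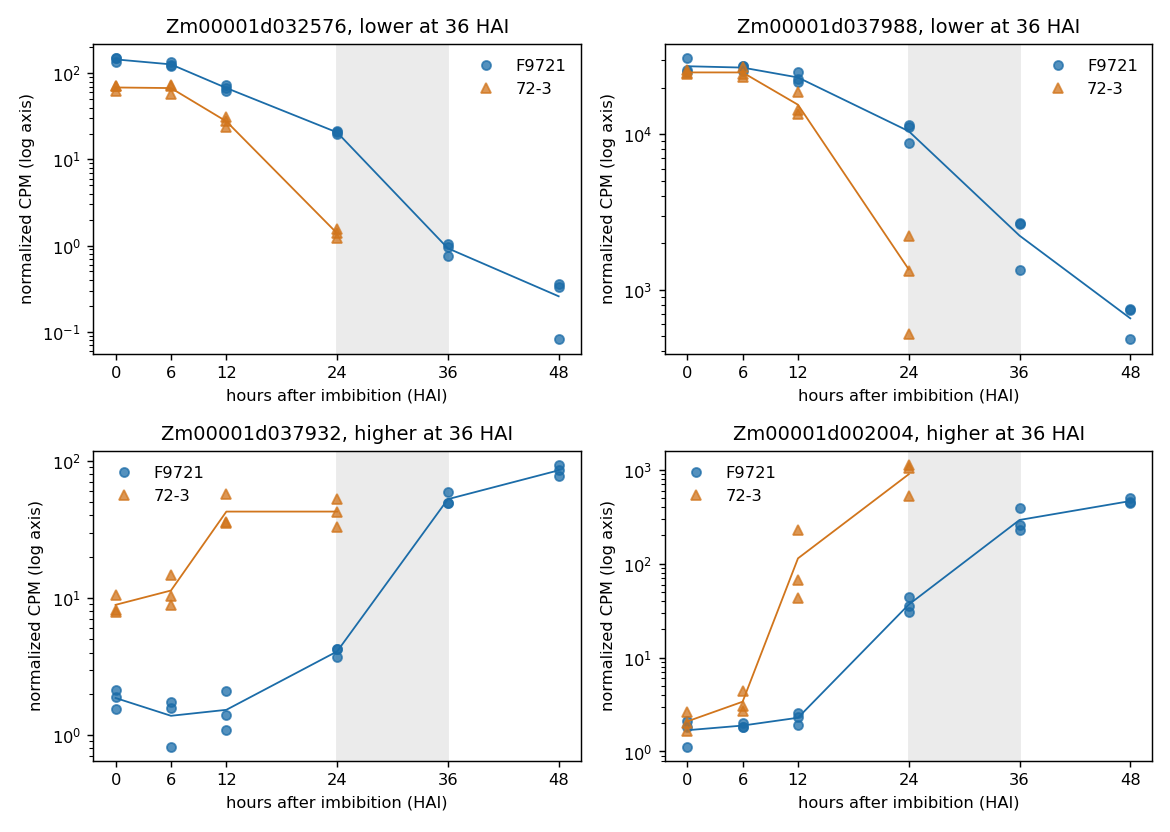
Normalized CPM on log axes against hours after imbibition for the lower DEGs Zm00001d032576 and Zm00001d037988 (top) and the higher DEGs Zm00001d037932 and Zm00001d002004 (bottom), with 1 point per library and lines through the group means of F9721 and 72-3. Both lower genes fall from the dry seed on, and in both the drop between 24 and 36 HAI separates the libraries of the 2 times.

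Some genes crossed the limit of detection. With a limit of 3 counts in every library of a time, 150 genes were above the limit at 36 HAI and at or under it at 24 HAI, and 276 genes were above it at 24 HAI and at or under it at 36 HAI. Of these, 66 and 159 were DEGs, and 9347 genes were at or under the limit at both times. The counts were 234 and 310 without replicate 3 at 36 HAI. Neither could fall, since the limit then has to hold in fewer libraries. Zm00001d033365 had 368 counts over the 3 libraries at 36 HAI and 6 counts over those at 24 HAI, a ratio of 59.6 after scaling (95% exact interval of the counts 27.1 to 164). Zm00001d041796 had 6 counts at 36 HAI and 188 at 24 HAI, a ratio of 32.2 downwards (14.5 to 88.9). Not being detected means here that a gene was under the depth of these libraries, not that it was silent.

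The lower genes tended to be short. The deposited files give no gene lengths, but counts and TPM together imply a relative length, scaled to a median of 1 over the genes tested. The median was 0.492 for the lower genes and 1.02 for the higher genes. With the genes in 4 classes of like size by this length, 5.62% of the shortest class were called lower, and 3.52%, 1.62% and 0.909% of the following classes up to the longest. The same order was seen among genes with a mean of 10 to 100 CPM over all 30 libraries, where 10.8%, 6.30%, 1.76% and 0.942% were called lower. Among those genes the share called higher had the same order, at 1.58%, 1.01%, 0.406% and 0.214%.

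Replicate 3 at 36 HAI moved with gene length too. Among genes of 10 to 100 CPM in the shortest class, the median log2 difference from the 24 HAI mean was -0.41, -0.33 and -1.09 in the 3 libraries at 36 HAI, and -0.11, 0.10 and 0.02 in the 3 libraries at 24 HAI. In the longest class it was 0.11, 0.10 and 0.27 at 36 HAI and 0.07, -0.04 and -0.03 at 24 HAI. All 3 libraries at 36 HAI were below the 3 at 24 HAI for short genes and above them for long genes, and replicate 3 was the farthest out at both ends. Without replicate 3 at 36 HAI, the lower genes still had a median relative length of 0.509, with 4.04% of the shortest and 0.864% of the longest class called lower. At 48 HAI, replicate 3 also stood apart among the shortest genes, at -0.97 against -0.38 and -0.30 in replicates 1 and 2. Short DEGs were seen at other steps as well. The median relative length was 0.531 for the higher and 0.562 for the lower DEGs at 48 HAI against 36 HAI, and 0.623 for the lower DEGs of 72-3 at 24 HAI against 12 HAI. Among all genes of 10 to 100 CPM, the median log2 fold change by class, from the shortest to the longest, was -0.58, -0.21, -0.05 and 0.16 at the step of F9721 and -0.11, -0.08, -0.06 and -0.07 at that step of 72-3. The part of gene length and of replicate 3 in the calls of single genes was not tested beyond leaving that library out.

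**Figure D4:**
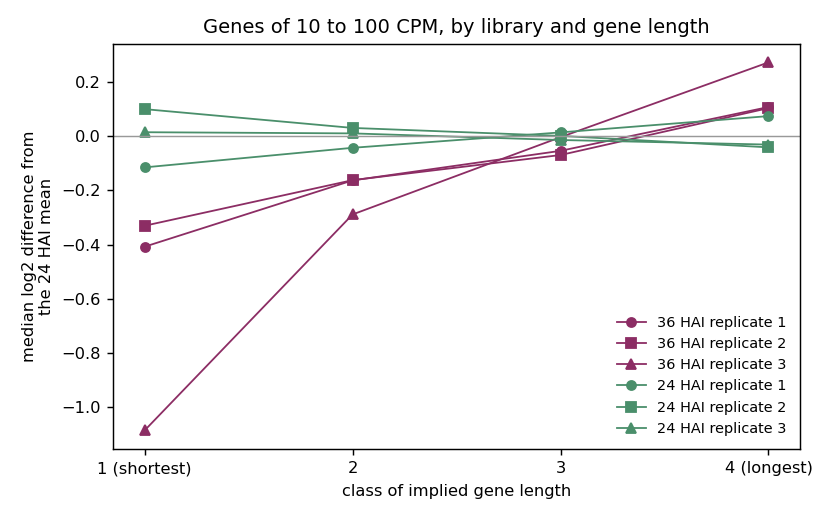
Median log2 difference of each library from the 24 HAI mean, on log2(CPM + 0.5), for genes with a mean of 10 to 100 CPM in 4 classes of the gene length that counts and TPM imply. The 3 libraries at 36 HAI slope upwards from short to long genes, and replicate 3 at 36 HAI is the steepest, from -1.09 in the shortest to 0.27 in the longest class.

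The difference between steps was tested in the same fit. At 36 against 24 HAI compared with 24 against 12 HAI, 460 genes (1.32% of the genes tested) had a different change, and the difference was positive for 70 and negative for 390. A negative difference can be a deeper fall or a smaller rise, and 197 of the 390 were lower DEGs of the step. Of the 34746 genes tested, 1014 were lower DEGs. This contrast uses the step's own libraries, so much of that overlap is built in. The count of 460 was 283 and 297 without replicate 2 and replicate 3 at 24 HAI, the time that both steps share. Zm00001d025016 had the smallest p of these: its libraries held 374, 361 and 350.1 CPM at 36 HAI and 136, 196 and 153 CPM at 24 HAI. It averaged 5.60 CPM at 12 HAI, so its log2 fold change was 1.16 at this step and 4.85 at the step before, a difference of -3.69 (SE 0.28, edgeR quasi-likelihood test, Benjamini-Hochberg adjusted p = 2.2e-09). In the other direction, Zm00001d015912 had 20.9, 17.8 and 26.0 CPM at 36 HAI, 1.48, 2.37 and 2.35 CPM at 24 HAI and a mean of 3.76 CPM at 12 HAI, a difference of 4.22 between the steps (SE 0.53, edgeR, adjusted p = 5.6e-06).

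Against the step after, 48 against 36 HAI, 531 genes (1.53% of the genes tested) had a different change. The difference was positive for 106, of which 70 were higher DEGs of the step, and negative for 425, of which 277 were lower DEGs. Of the 34746 genes tested, 349 were higher and 1014 lower DEGs of the step. This contrast too uses the step's own libraries, so much of the overlap is built in. The count of 531 was 262 without replicate 3 at 36 HAI, the lowest with 1 library left out. It was 307 without replicate 3 at both 36 and 48 HAI, where 62 differences were positive and 245 negative. Zm00001d045582 had the smallest p. It was measured at 1.05, 1.27 and 0.763 CPM at 36 HAI, at 17.1, 13.9 and 13.2 CPM at 24 HAI, and it averaged 2.83 ± 0.64 CPM at 48 HAI (SD, n = 3). Its 36 HAI libraries were its lowest point, and the difference between the steps was -5.25 (SE 0.39, edgeR quasi-likelihood test, Benjamini-Hochberg adjusted p = 1.2e-09). Zm00001d003087 had the reverse shape, at 47.0, 51.9 and 56.4 CPM at 36 HAI, 15.0, 13.4 and 15.7 CPM at 24 HAI and a mean of 38.2 CPM at 48 HAI, a difference of 2.26 (SE 0.23, edgeR, adjusted p = 7.6e-07).

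The last step of 72-3, 24 against 12 HAI, shares no library with the step of F9721. It had 3528 DEGs, 10.2% of the genes tested, with 2016 higher (5.80%) and 1512 lower (4.35%). Of the 1014 genes that were lower in F9721 at 36 HAI, 583 were also lower at that step of 72-3, which is 57.5% of the F9721 list and 38.6% of the 72-3 list, and 3 were higher. Without replicate 3 at 36 HAI, 495 of 757 lower genes were shared, or 65.4% of the F9721 list and 32.5% of the 72-3 list. Of the 349 higher genes, 246 were also higher, or 70.5% of the F9721 list and 12.2% of the 72-3 list. None of the 349 was a lower DEG in 72-3 by edgeR, and 4 of them had an unadjusted p under 0.05 with a fall. Their median level in 72-3 at 12 HAI was only 0.496 CPM, from which a fall could hardly be seen for many of them. The share of all genes with such a fall was not computed. The median log2 fold change at the 72-3 step was -2.41 over the lower list and 3.24 over the higher list, against 0.00 over all genes tested at that step. In 72-3, the lower genes took 0.897% to 1.73% of the counts on genes at 24 HAI and 10.5% to 14.0% at 12 HAI, and the higher genes 0.736% to 1.20% at 24 HAI and 0.0666% to 0.137% at 12 HAI. For comparison, the last F9721 times had 0.692% to 1.58% at 36 HAI and 0.403% to 0.712% at 48 HAI for the lower genes, and 0.566% to 0.594% at 36 HAI and 1.10% to 1.19% at 48 HAI for the higher genes.

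The size of the change differed between the F9721 step and the 72-3 step for part of the genes. Line, hours after imbibition and stage of germination differ together between these steps and cannot be told apart. The test of the difference, the F9721 step minus the 72-3 step, called 1084 genes (3.12% of the genes tested), 247 positive and 837 negative. Zm00001d029333 was measured at 11.9, 12.8 and 12.2 CPM in F9721 at 36 HAI and at 10.4, 7.78 and 7.89 CPM at 24 HAI, while in 72-3 it averaged 14.3 ± 1.7 CPM at 24 HAI and 95.9 ± 6.4 CPM at 12 HAI (SD, n = 3 each). Its difference was 3.25 (SE 0.20, edgeR quasi-likelihood test, Benjamini-Hochberg adjusted p = 1.1e-11), and the lines differed mostly in their level before the step. Zm00001d047765 moved in opposite directions at these 2 steps. It fell to 62.6, 65.7 and 57.2 CPM in F9721 at 36 HAI, against 252, 303 and 217 CPM at 24 HAI, and rose in 72-3 to 234 ± 48.9 CPM at 24 HAI, against 53.5 ± 4.1 CPM at 12 HAI (SD, n = 3 each). Its difference was -4.19 (SE 0.30, edgeR, adjusted p = 1.0e-10). Its F9721 log2 fold change was -2.06, and without replicate 2 at 24 HAI it was -1.92, which is not a DEG. At the step before, this gene had a rise in F9721 too, to a mean of 257 CPM at 24 HAI, against 125 CPM at 12 HAI (log2 fold change 1.04, SE 0.20, edgeR, adjusted p = 2.9e-04).

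The candidate locus list holds 87 genes proposed for a region associated with germination speed in a cross of the lines, and 82 of them had reads. These are the genes that come with a description. Only 1 of the 82 was a DEG of this step, 1.22% against 3.92% of all genes tested. An adjusted p of at most 0.01 was reached by 22, or 26.8% against 17.6% of all genes tested, and 17 of these were higher and 5 lower at 36 HAI. The median log2 fold change of the list was 0.00, as over all genes tested. Without replicate 3 at 36 HAI, 11 genes, 13.4% of the list, reached an adjusted p of at most 0.01, against 12.8% of all genes tested. In that fit 13 of the 22 missed it, and 12 missed it without replicate 2 at 24 HAI. The share of the list beside all genes was not computed with any other library left out. Whether its drop is particular to replicate 3 was not tested. Over all 15 alternative fits, 14 of the 22 missed an adjusted p of 0.01 in at least 1 of them and 8 reached it in each, and no gene of the 22 changed its direction. The roles by which the genes are grouped below were assigned after their values were seen, so the counts by role are descriptions. With 17.6% over all genes tested, 0 of 3 cell wall genes and 1 of 7 metabolism genes had an adjusted p of at most 0.01. Without a common role it was 4 of 19, 2 of them higher and 2 lower. It was 1 of 4 for ubiquitin and COP9, 1 of 4 for cytoskeleton and vesicle traffic, and 1 of 3 for mitochondria and peroxisome. The other classes are counted below.

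The DEG was Zm00001d027369, described as a chloroplastic protein-ribulosamine 3-kinase, an enzyme family that phosphorylates sugars bound to proteins and so helps to remove them. It had 0.404, 0.60 and 0.593 CPM at 36 HAI and 4.36, 4.65 and 4.40 CPM at 24 HAI. The times did not overlap, and the log2 fold change was -3.04 (SE 0.30, edgeR quasi-likelihood test, Benjamini-Hochberg adjusted p = 3.5e-09). It followed the course of the lower list, with means of 17.8 CPM in dry seeds, 17.6 CPM at 6 HAI and 0.365 CPM at 48 HAI, and in 72-3 it was also a lower DEG at 24 against 12 HAI, at -3.96.

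Among the genes for transcription, chromatin and RNA, 4 of 9 (44.4%) reached an adjusted p of at most 0.01, against 17.6% of all genes tested. All 4 were higher, and of them rolled leaf 1 and 2 reached it in every fit. Rolled leaf 2 (Zm00001d027317) and rolled leaf 1 (Zm00001d048527) encode homeodomain-leucine zipper transcription factors that pattern the upper side of the maize leaf. Rolled leaf 2 had 11.5, 10.4 and 12.0 CPM at 36 HAI and 4.18, 3.55 and 5.61 CPM at 24 HAI, with a log2 fold change of 1.34 (SE 0.25, edgeR, adjusted p = 1.5e-04). Rolled leaf 1 had 26.9, 22.8 and 26.4 CPM at 36 HAI and 10.5, 11.8 and 13.4 CPM at 24 HAI, with a log2 fold change of 1.08 (SE 0.21, edgeR, adjusted p = 1.9e-04). Both paralogs rose without overlap between the times, and at 48 HAI they averaged 20.7 CPM for rolled leaf 2 and 39.8 CPM for rolled leaf 1. A subunit 12-like protein of Mediator, which links transcription factors to RNA polymerase II (Zm00001d027299), and subunit 1 of the THO complex, which takes part in the export of messenger RNA (Zm00001d027324), rose by 0.67 and 0.51 on the log2 scale, and missed the threshold without replicate 3 at 36 HAI (edgeR, adjusted p = 0.040 and 0.041).

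Of the 3 transport genes tested, 2 rose at an adjusted p of at most 0.01, with 17.6% over all genes tested. The molybdate-anion transporter reached that in every fit. The plasma membrane ATPase 9 (Zm00001d027304), a proton pump, had 4.68, 4.87 and 4.91 CPM at 36 HAI and 1.92, 1.61 and 2.28 CPM at 24 HAI, with a log2 fold change of 1.31 (SE 0.35, edgeR, adjusted p = 0.0047), and of 1.30 without replicate 3 at 36 HAI (adjusted p = 0.013). The molybdate-anion transporter (Zm00001d027344) had 49.3, 51.7 and 53.7 CPM at 36 HAI and 23.3, 26.5 and 24.3 CPM at 24 HAI, with a log2 fold change of 1.06 (SE 0.15, edgeR, adjusted p = 2.1e-06). SKP1-like protein 21 (Zm00001d048536), of the family that forms the core of SCF ubiquitin ligases, rose by 0.90, and the alpha-2 subunit of the clathrin adaptor AP-2 (Zm00001d048511) by 0.44. Both missed the threshold without replicate 3 at 36 HAI (edgeR, adjusted p = 0.035 and 0.095).

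The mitochondrial import subunit TIM23-2 (Zm00001d027345), part of the channel that carries proteins across the inner membrane, was lower, at 19.5, 25.5 and 3.22 CPM at 36 HAI and 41.6, 59.9 and 52.1 CPM at 24 HAI. Replicate 3 at 36 HAI lay far under the other libraries, and the log2 fold change was -1.67 (SE 0.45, edgeR, adjusted p = 0.006). Without replicate 3 at 36 HAI it was -1.19 (adjusted p = 0.033), and without replicate 2 at 36 HAI the gene was a DEG, at -2.17. A peptidyl-prolyl isomerase (Zm00001d027321), of a family that helps proteins to fold, fell by 1.25 on the log2 scale, and a membrane protein (Zm00001d027355) by 0.77, with 98.7, 109 and 56.0 CPM at 36 HAI and 145, 161 and 143 CPM at 24 HAI. The membrane protein gene missed the threshold without replicate 3 at 36 HAI, at -0.53 (edgeR, adjusted p = 0.057). Of the 30 uncharacterized genes tested, 7 rose and 1 fell at an adjusted p of at most 0.01, together 26.7%, against 17.6% of all genes tested. Without replicate 3 at 36 HAI, Zm00001d027347, Zm00001d048510 and Zm00001d051742 still reached it, and the others of these genes missed it.

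Some genes of the list are discussed by the authors as candidates. Malic enzyme 1 (Zm00001d011289), which makes pyruvate from malate, had 10.4, 8.25 and 12.6 CPM at 36 HAI and 10.7, 12.9 and 13.1 CPM at 24 HAI, with a log2 fold change of -0.24 (SE 0.20, edgeR, adjusted p = 0.47). Malic enzyme 2 (Zm00001d012623) had 3.63, 4.20 and 3.39 CPM at 36 HAI and 3.05, 1.10 and 1.90 CPM at 24 HAI, with a log2 fold change of 0.89 (SE 0.39, edgeR, adjusted p = 0.10). Subunit 1 of the COP9 signalosome (Zm00001d048502), a regulator of ubiquitin ligases, had 0.565, 0.450 and 0.254 CPM at 36 HAI and 0.610, 0.592 and 0.303 CPM at 24 HAI, with a log2 fold change of -0.22 (SE 0.44, edgeR, adjusted p = 0.88). Its libraries held only 7, 6 and 3 counts at 36 HAI and 7, 7 and 4 at 24 HAI. That is near the limit of detection, where a change could hardly be seen. The libraries of the 2 times overlapped for the COP9 subunit and for malic enzyme 1, and the changes of all 3 genes missed the threshold. Both malic enzyme genes had 0 counts in every 72-3 library.

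**Figure D5:**
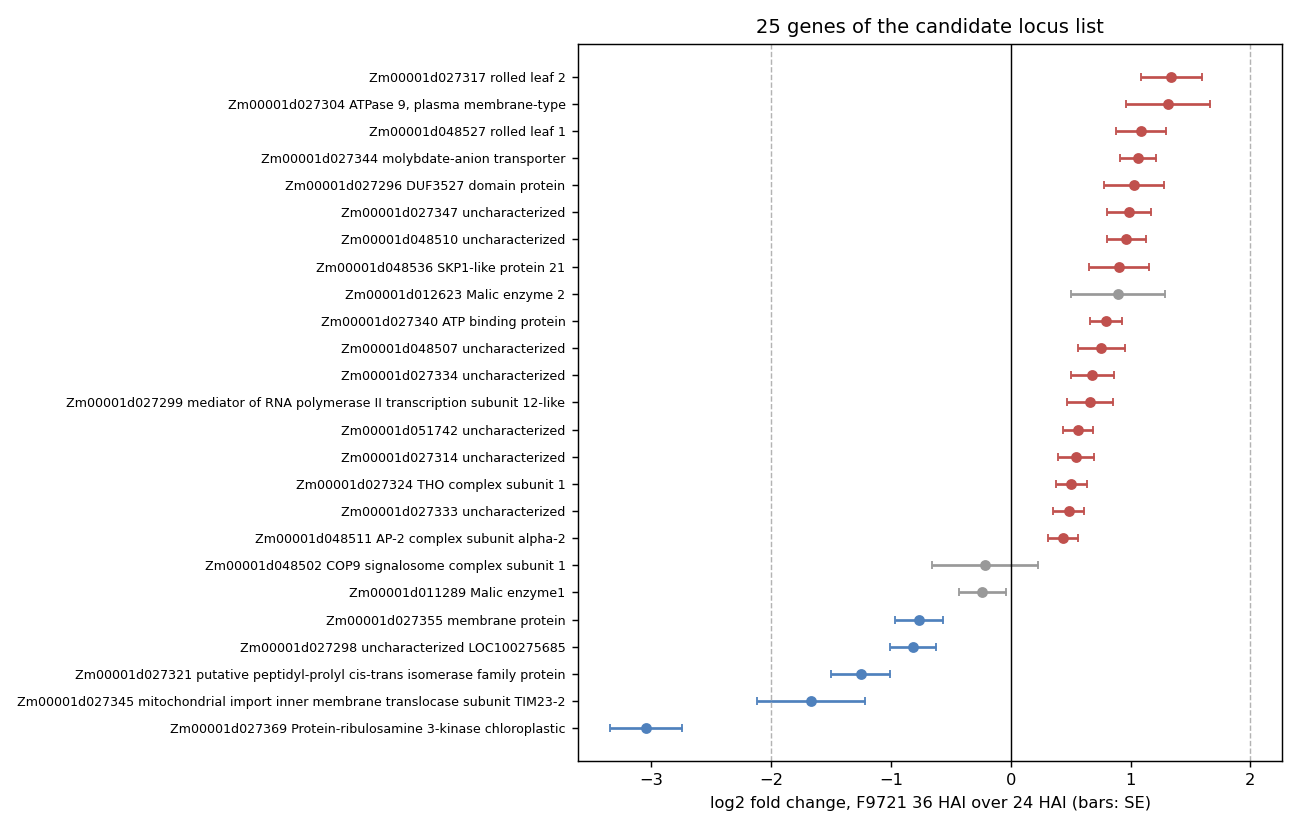
Log2 fold change at 36 HAI over 24 HAI in F9721, with bars of 1 SE, for the 22 genes of the candidate locus with an adjusted p of at most 0.01 (red higher, blue lower) and for the 3 candidate genes that missed it (grey). Dashed lines mark the fold threshold of 2 on the log2 scale. Only the protein-ribulosamine 3-kinase gene lies beyond it, at -3.04.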

How the data were processed

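Reads were trimmed by the authors (fastp) and mapped to B73 RefGen_v4 (HISAT2), and the authors deposited HTSeq union counts per gene and TPM values; versions, strand setting and gene lengths are not given in the sources used here. Counts of the 39005 genes were tested with edgeR 4.0.16 (R 4.3.3, TMM scaling, quasi-likelihood fit with 1 mean per group over all 30 libraries, 34746 genes with at least 1 read). A DEG had a Benjamini-Hochberg adjusted p no higher than 0.01 and a log2 change of 2 or more in size, and differences between steps were contrasts of the same fit. Alternatives used DESeq2 1.42.0, limma 3.58.1 on log2(TPM + 1) and log2(TPM + 0.1), other filters, sample sets and a replicate block. The script was tested on simulated data. Intervals and detection limits cover counting error only. The 3 replicates are from different ears, but the numbers are not tied to an ear. Between 36 and 24 HAI same-numbered libraries did not deviate together. Between 48 and 36 HAI they did (r of 0.54, 0.66 and 0.86), but replicates 1 and 2 did so across numbers as well (0.60 and 0.64), so what the deviations show is replicate 3 against the other libraries. Named genes were, in each direction, the 6 DEGs of smallest p without overlap, the 4 of largest CPM difference, the 3 at the limit of detection with the highest counts, the 3 of smallest p for each difference between steps, and the locus genes with an adjusted p of at most 0.01 or discussed as candidates. Since 0 identifiers matched the reference table, at most a few unnamed identifiers are printed per comparison and the others are given as ranges, and planned gene groups and cell type markers could not be used. The members and lists were chosen with earlier results of these data known, and the roles of the locus genes were assigned after their values were seen.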

Additional observations from a re-analysis of the deposited data

Results flagged for a closer look

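The changes of the step differed from those of other steps by a test of the difference itself. This held for 460 genes against the step before, for 531 genes against the step after, and for 1084 genes against 24 HAI over 12 HAI in 72-3. Replicate 3 at 36 HAI moved with the comparison with the step after, which had 262 genes without that library. The following genes had the smallest p in the comparison with 72-3. Zm00001d029333 differed by 3.25 on the log2 scale, with 0.51 in F9721 and -2.75 in 72-3. Zm00001d029366 differed by 3.87, with a fall in both lines, of -2.37 in F9721 and -6.23 in 72-3. Zm00001d018384 differed by -5.45, with 0.63 in F9721 (edgeR, adjusted p = 0.033) and 6.08 in 72-3. Zm00001d047765 differed by -4.19, with -2.06 in F9721 and 2.13 in 72-3.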

How the results depend on the processing

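The step had more lower than higher DEGs in every fit: 359 higher and 944 lower with DESeq2, 373 and 958 with the size factors of DESeq2 in edgeR, 310 and 843 with the 6 libraries alone, 187 and 389 (576 in all) with limma on log2(TPM + 1), and 526 and 711 with limma on log2(TPM + 0.1). With a log2 threshold of 1 there were 3515 DEGs among the 34746 genes tested, 1185 higher and 2330 lower, and 8 among the 82 tested of the locus list. limma on log2(TPM + 1) called 0 genes of the locus list, where 40 of 82 had an unadjusted p under 0.05. An adjusted p of at most 0.01 was reached by 26 in that fit, and these missed the fold threshold. The shares of all genes at these p were not computed for that fit. At an adjusted p of at most 0.001 the step after had 150 DEGs, and the differences from the step before, the step after and 72-3 had 231, 251 and 608. Leaving out 1 library at a time gave 1081 to 1479 DEGs, 291 to 370 higher and 757 to 1145 lower, 1 to 2 in the locus list, and 283 to 501, 262 to 512 and 869 to 1108 for the 3 differences. The lowest counts of the difference from the step before came without replicate 2 (283) or replicate 3 (297) at 24 HAI. Without replicate 3 at both 36 and 48 HAI, chosen after seeing the data, the difference from the step after was 307. A detection limit of 10 counts gave 230 genes above it only at 36 HAI. With the replicate block the step had 1356 DEGs, 338 higher and 1018 lower; at this step the numbers did not pair the libraries (r of -0.24, 0.09 and -0.17). Of 66 named genes over 15 fits, 8 changed their DEG call in any fit and 0 reversed. Many were picked for a small p or a large change in these same data, which favours a stable call. A reversal was counted only for genes that were DEGs in either fit. Among the others, malic enzyme 1 ranged from -0.40 to 0.13 on the log2 scale and the COP9 subunit from -0.49 to 0.07. The adjusted p alone was less stable: 14 of the 22 locus genes at 0.01 or less missed it in some fit, 13 without replicate 3 at 36 HAI and 12 without replicate 2 at 24 HAI. The cause of these shifts was not tested.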
